A study of Mus musculus with 70 samples.

Results

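Effector Tregs of the mouse lung were compared here with central Tregs of the same lungs. Both were ST2- regulatory T cells (Tregs), and they were told apart at the sorter by CD44 and CD62L. ST2- CD44hi Tregs (eTregs) and ST2- CD44lo CD62L+ Tregs (cTregs) were each sorted from the lungs of the same 5 mice, so the comparison used 10 of the 70 libraries of the series, chosen by their labels and not by any measured value. All 5 animals were males aged 16.6 to 18.6 weeks that carried the allele Foxp3tm4(YFP/icre)Ayr on a B6.129 background, in which YFP fused to Cre recombinase is expressed from the Foxp3 locus, as did every group of the series. The labels name no treatment. Lungs were perfused and digested with collagenase, CD4 T cells were enriched with magnetic beads, and 220 live cells that were CD45.2+, CD4+ and YFP+ and lacked CD8 and CD11b, among others, were sorted for each library, which was made with SMART-Seq v4 and NexteraXT and sequenced as single reads. The eTreg gate as labelled set no limit on CD62L. Cells left in vessels after perfusion were not separated, so both populations are cells recovered from lungs and not cells known to reside in the tissue.

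Tregs restrain other immune cells and depend on the transcription factor FOXP3. Central Tregs resemble naive T cells, since they carry homing receptors such as CCR7 and circulate through lymphoid organs, whereas effector Tregs have been activated by antigen, carry receptors for inflamed or barrier tissue and make suppressive molecules such as IL-10. ST2 is the receptor of the alarmin IL-33 and marks a further effector subset that was gated out of both groups. The question was which genes separate the effector from the central state within one organ, and whether the separation in lungs differed from that in spleen.

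Counts per library ran from 1559367 to 2453648 in eTregs and from 1829206 to 2670517 in cTregs. A protein-coding gene was tested if it reached 1 CPM (counts scaled to 1000000 per library) in 10% of the 67 libraries that held at least 1000000 counts, which gave 13173 genes. Levels are given below as CPM scaled with TMM factors, and they are not adjusted for gene length, so each value is compared only with values of the same gene. A gene was called differentially expressed (a DEG) where edgeR's quasi-likelihood test gave an adjusted p (Benjamini-Hochberg) of 0.05 or less together with a 1.5-fold or larger difference. Differences are log2 fold changes, eTregs minus cTregs, with their standard error (SE), and means are ± SD over 5 libraries. Every adjusted p is from that test over all 13173 genes unless another fit is named.

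Lung eTregs differed from cTregs mostly by genes that were higher in eTregs. Of the 13173 genes, 639 (4.85%) rose and 94 (0.714%) fell, so that 87.2% of the DEGs were higher in eTregs. The direction was the same in 5 of 5 mice for 523 of the 639 and for 86 of the 94. Of all tested genes, 10.5% were higher and 7.89% lower in 5 of 5 mice. The same libraries gave the calls, so this agreement is no separate support for them. All 5 eTreg libraries lay above all 5 cTreg libraries in 442 of the DEGs that rose, against 635 (4.82%) of all tested genes, and all 5 lay below in 74 of the DEGs that fell, against 282 (2.14%) of all. The DEGs that rose had larger differences, given here without a test. With genes without cTreg reads set at a bound of 3 counts over the group, the median size was 2.97 on the log2 scale for the DEGs that rose and 1.05 for those that fell. At least 4-fold differences were found in 388 of the 639 and 14 of the 94. The number that fell varied with the libraries fitted and with the method. It was 43 to 69 with 1 mouse left out of every group, where 429 to 522 rose. Each omission also left fewer libraries, so these counts do not single out an animal. The number that fell was 206 when only the lung libraries were fitted. With voom and quality weights, the method of the study, 349 fell, 881 rose and the share that was higher was 71.6%.

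**Figure D1:**
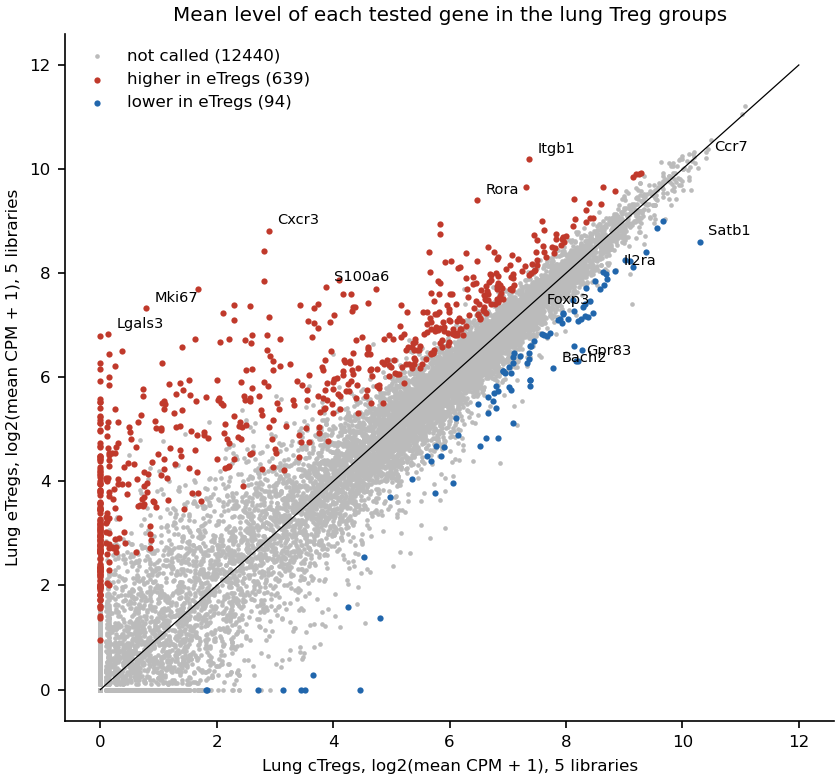
Mean level of each of the 13173 tested genes in lung cTregs (x axis) and lung eTregs (y axis), as log2 of the mean CPM of 5 libraries plus 1. Red points are the 639 DEGs higher in eTregs and blue points the 94 lower. Many red points stand at or near 0 on the x axis, while most blue points lie close to the diagonal.

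For the 10 genes that rose with the smallest p-values, every eTreg library was above every cTreg library. Itgb1 (ENSMUSG00000025809, chr8:128685654-128733200 in GRCm38), the integrin β1 subunit that pairs with many α subunits to bind extracellular matrix, was at 1295, 1110.3, 1112, 1186 and 1124 CPM in eTregs of mice 1 to 5 and at 140.5, 118, 255, 134 and 170.5 CPM in cTregs of the same mice. Its difference was 2.83 (SE 0.22, adjusted p = 2.5e-15), and the lowest eTreg library was far above the highest cTreg library. Glrx (ENSMUSG00000021591, chr13:75839868-75850154), which encodes the thiol oxidoreductase glutaredoxin, was at 222, 257, 152, 212 and 186 CPM in eTregs and 26.5, 13.1, 17.3, 30.7 and 39.98 CPM in cTregs, a difference of 2.996 (SE 0.20, adjusted p = 2.5e-17), the smallest p of all genes. Cxcr3 (ENSMUSG00000050232, chrX:101731535-101734269), the receptor of the interferon-induced chemokines CXCL9 and CXCL10, was at 485, 451, 439, 500.0 and 379 CPM in eTregs but at 0.748, 11.02, 0, 0 and 20.4 CPM in cTregs. Cxcr3 was thus near 0 in 3 of the cTreg libraries and low in those of mice 2 and 5, and its difference was 6.08 (SE 0.53, adjusted p = 1.7e-13). Lgals3 (ENSMUSG00000050335, chr14:47367751-47386160), encoding galectin-3, was at 112, 86.2, 133, 139.8 and 94.2 CPM in eTregs, and only the cTreg library of mouse 3 held any of it, a single read. The remaining genes of the 10 with the smallest p-values were S100a6, Anxa2, Myo1f (an unconventional myosin), Gna15 (a G protein α subunit), Zdhhc2 (a palmitoyltransferase) and Ttc39c. Their levels were 158 to 248, 414 to 642, 215 to 407, 137 to 201, 87.6 to 113 and 143 to 216 CPM in eTregs, in that order, against 0.374 to 30.2, 27.8 to 103, 0 to 11.4, 1.63 to 34.1, 0 to 8.54 and 0.374 to 7.75 CPM in cTregs.

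Promoter sequence is shown for DEGs that rose and hold the AP-1 motif TGANTCA, which factors of the FOS, JUN and BATF families bind, because Batf was itself among them. The motif was searched on both strands in the window from 250 bases before to 50 bases after the most upstream RefSeq start of each gene (GRCm38.p6), and 10360 of the tested genes had such a window under their symbol. It was held by 43 of 487 windows (8.83%) of genes that rose, 5 of 79 (6.33%) of genes that fell and 505 of 10360 (4.87%) of all tested genes. TCF and LEF factors bind CTTTGAT, which 1.64% of rising, 1.27% of falling and 2.45% of all windows held, and the E-box CAGCTG was in 16.6%, 16.5% and 15.0% of them. These shares describe letters in a window, were not tested, and say nothing of whether a factor was bound. Below are the 250 bases before the start of the 4 named genes with the smallest p-values whose motif lies there, all on the plus strand, with the motif in capitals. They lie at chr13:75839635-75839884 (Glrx), chr9:69453433-69453682 (Anxa2), chr3:93520246-93520495 (S100a11) and chr5:21372423-21372672 (Fgl2), and S100a11 holds the motif 2 times.
Glrx: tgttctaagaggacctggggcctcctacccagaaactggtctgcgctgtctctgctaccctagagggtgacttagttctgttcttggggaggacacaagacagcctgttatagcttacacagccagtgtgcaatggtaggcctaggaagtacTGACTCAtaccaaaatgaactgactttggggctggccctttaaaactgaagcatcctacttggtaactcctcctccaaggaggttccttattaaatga
Anxa2: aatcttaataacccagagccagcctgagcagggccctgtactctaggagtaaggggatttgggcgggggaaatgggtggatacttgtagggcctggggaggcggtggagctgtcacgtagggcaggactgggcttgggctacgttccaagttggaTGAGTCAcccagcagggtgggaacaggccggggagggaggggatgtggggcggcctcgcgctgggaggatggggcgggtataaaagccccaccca
S100a11: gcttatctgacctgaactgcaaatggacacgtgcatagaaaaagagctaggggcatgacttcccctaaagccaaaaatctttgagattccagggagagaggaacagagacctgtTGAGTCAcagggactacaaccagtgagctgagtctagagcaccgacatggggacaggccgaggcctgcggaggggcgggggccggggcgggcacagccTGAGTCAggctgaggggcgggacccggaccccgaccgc
Fgl2: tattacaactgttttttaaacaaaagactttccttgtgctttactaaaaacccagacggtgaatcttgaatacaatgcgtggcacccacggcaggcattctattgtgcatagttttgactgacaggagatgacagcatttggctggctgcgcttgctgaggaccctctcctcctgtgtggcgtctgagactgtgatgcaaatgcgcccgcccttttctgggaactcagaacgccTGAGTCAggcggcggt

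The genes that fell with the smallest p-values were of lower amplitude and included regulators of growth factor and cytokine signalling. Slc35d1 (ENSMUSG00000028521, chr4:103170649-103215164), a nucleotide-sugar transporter, was at 52.7, 89.6, 104, 93.8 and 53.3 CPM in eTregs and 256, 399.8, 258, 305 and 219 CPM in cTregs, and its difference of -1.87 (SE 0.30, adjusted p = 4.4e-06) had the smallest p of the DEGs that fell. Il2ra, which encodes CD25, the α chain of the IL-2 receptor on which Tregs depend, was at 241, 309, 249.5, 242 and 268 CPM in eTregs and 449, 474, 476, 348 and 541 CPM in cTregs. Every eTreg library of Il2ra lay below every cTreg library, and the difference was -0.81 (SE 0.16, adjusted p = 3.1e-04). Pik3ip1, an inhibitor of PI3 kinase, fell from 304 ± 31 to 138 ± 12.1 CPM, and Ski, a repressor of TGF-β signalling, fell from 210.5 ± 41.5 to 114 ± 14.4 CPM. Klf7 (a Krüppel-like factor), Foxn3 and Foxp1 (forkhead factors), Usp3 (a deubiquitinase), Nop56 (a component of small nucleolar ribonucleoproteins) and Rnf130 completed the 10, with differences of -1.45, -0.86, -0.70, -0.82, -0.63 and -1.83. Their groups did not overlap. Tested against a minimum of 1.5-fold with glmTreat, which asks more than the rule used here, 14 genes fell, and Foxn3, Usp3, Il2ra, Pik3ip1, Ski, Foxp1 and Nop56 were not among them.

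**Figure D2:**
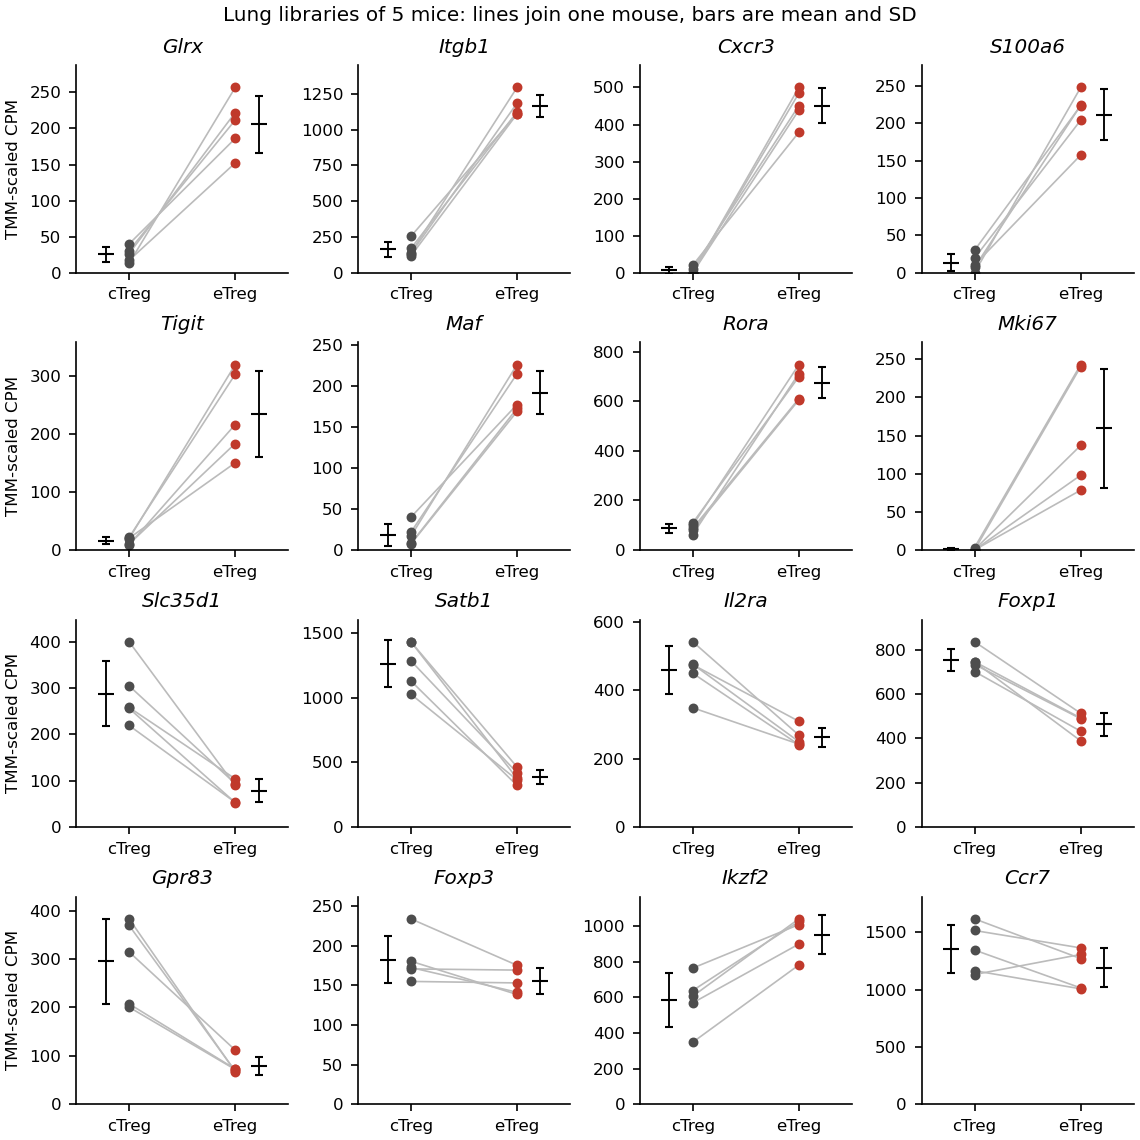
TMM-scaled CPM (y axis, from 0) of 16 genes in each lung library, with grey lines joining the cTreg (grey points) and eTreg (red points) libraries of 1 mouse and bars giving mean and SD of 5. Itgb1, Cxcr3 and Mki67 do not overlap between the groups, Il2ra and Satb1 lie lower in all eTreg libraries, and Foxp3 and Ccr7 overlap.

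Transcripts of proteins used for the sort check the gates and are not findings. Cd44 was at 247 to 341 CPM in eTregs and 43.7 to 81.1 CPM in cTregs. Il1rl1 was at 0 to 9.64 CPM in eTregs and 0 to 4.81 CPM in cTregs, against 907 ± 72.9 CPM in lung ST2+ Tregs. Foxp3 was at 169, 138, 141, 175 and 153 CPM in eTregs and 171, 180.5, 173, 234 and 155 CPM in cTregs, with overlapping groups and a difference of -0.23 (SE 0.13, adjusted p = 0.35). Within each of the 5 mice the eTreg library was the lower, as for 7.89% of all tested genes. With each mouse as a block in the edgeR fit the adjusted p of Foxp3 was 0.33. Cd4 was at 315 to 498 and 245 to 481 CPM, and Cd8a had no read in any of the 10 libraries.

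Genes of Treg identity moved in both directions. Of 12 tested members, 2 rose, 2 fell and 8 were not called. The shares were 16.7% in each direction, beside 4.85% higher and 0.714% lower of all tested genes. The list's median difference was -0.041, beside 0.0024 over all tested genes. Ikzf2, encoding the transcription factor Helios, rose from 586 ± 152 to 952 ± 110.1 CPM (difference 0.70, SE 0.16, adjusted p = 0.0029). Nrp1, encoding the semaphorin receptor neuropilin-1, rose from 279 ± 28.8 to 478 ± 47.4 CPM, in all 5 mice, with an adjusted p of 0.037 that became 0.066 to 0.14 without mouse 1, 2, 3 or 4. Gpr83, a Treg-associated G protein-coupled receptor, was at 72.7, 68.6, 71.7, 112 and 67.1 CPM in eTregs and 207, 369, 200.5, 315 and 383 CPM in cTregs, a difference of -1.91 (SE 0.49, adjusted p = 0.0084, and 0.061 and 0.074 without mouse 2 and 5). Il2ra, described above, was the other member that fell. Ctla4 was at 968 ± 155 CPM in eTregs and 809 ± 127 CPM in cTregs, Tnfrsf18 (GITR) at 318 ± 38.9 and 305 ± 43.7 CPM, Lrrc32 (GARP) at 484 ± 150 and 505 ± 163 CPM, and Izumo1r (folate receptor 4) at 416 ± 53.6 and 439 ± 39.6 CPM. These 4 genes overlapped between the groups, as did Foxp3, Ikzf4, Cd5 and Tnfrsf4.

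Among 20 tested transcription factors of effector T cells and Tregs, 12 rose and none fell (60%, beside 4.85% of all tested genes), with a median difference of 2.07. Maf, which promotes IL-10 expression, was at 173, 226, 169, 215 and 177 CPM in eTregs and 7.85, 16.8, 7.21, 21.6 and 39.98 CPM in cTregs (difference 3.35, SE 0.33, adjusted p = 1.1e-11). Rora, a nuclear receptor of tissue lymphocytes, was at 712, 699, 606, 748 and 610.4 CPM and 62.0, 109, 79.8, 99.6 and 87.3 CPM (difference 2.95, SE 0.31, adjusted p = 4.7e-11). Prdm1, encoding BLIMP-1, was at 31.2 to 124 CPM in eTregs and 0.525 to 8.16 CPM in cTregs, and Batf, a bZIP factor needed for tissue Tregs, at 139 to 202 and 56.1 to 68.3 CPM. All 4 were higher in every eTreg library than in any cTreg library. Id2, an inhibitor of E proteins, rose by 2.12 (SE 0.28) and Gata3, the type 2 factor, by 0.70 (SE 0.14, adjusted p = 1.9e-04). Bhlhe40, Nfil3, Tbx21, Runx2 and Ahr were among the other members that rose. Irf4, Hif1a, Bcl6, Vdr, Zeb2, Pparg, Ikzf3 and Eomes were not called.

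Among 14 factors of resting and recirculating T cells, none rose and 5 fell (35.7%, beside 0.714% of all tested genes), with a median difference of -0.31. Satb1, a chromatin organiser, was at 364, 376, 419, 464 and 321 CPM in eTregs and 1026, 1431, 1284, 1430.0 and 1128 CPM in cTregs, a difference of -1.70 (SE 0.38, adjusted p = 0.0016). Bach2, which represses effector genes, was at 26.7, 48.2, 109, 96.5 and 75.4 CPM in eTregs and 223, 263, 176, 208 and 226 CPM in cTregs, so that the groups did not overlap, and its adjusted p of 0.017 became 0.11 without mouse 2 and 0.091 without mouse 5. Lef1 was at 260.1 to 356 and 449.6 to 631 CPM (adjusted p = 0.0098, and 0.062 without mouse 4), and Foxp1 at 389 to 514 and 702 to 837 CPM. Ikzf1 was the other member that fell, and its call was lost without mouse 1, 3, 4 or 5 (adjusted p of 0.050 to 0.14). Id3, the E protein inhibitor of resting cells, was at 23.8 to 64.1 CPM in eTregs and 34.1 to 67.7 CPM in cTregs, with a difference of -0.071 (SE 0.46). Tcf7, Foxo1, Klf2, Klf3, Ets1, Myb, Zeb1 and Bcl11b were not called either.

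Receptors for tissue homing rose, whereas most receptors of lymphoid recirculation were not called. Of 17 tested chemokine and lipid receptors of tissue homing, 12 rose and none fell (70.6% higher, beside 4.85% of all tested genes). Their median difference was 4.44 (4.14 with genes without cTreg reads at their bound). Cxcr6, the receptor of CXCL16, was at 182, 379.6, 136, 200.1 and 132 CPM in eTregs and 0, 0, 0.961, 1.14 and 8.98 CPM in cTregs. Ccr2, the receptor of the monocyte chemokine CCL2, was at 103, 290.0, 221, 314 and 219.7 CPM in eTregs and 0, 0.525, 0, 7.97 and 21.6 CPM in cTregs, and Ccr4, which binds CCL17 and CCL22, at 167, 129.7, 63.3, 100.3 and 93.3 and 0.374, 0.525, 0, 11.9 and 12.7 CPM. Differences were 6.401 (SE 0.66), 5.201 (SE 0.57) and 4.44 (SE 0.46), and in each case the cTreg library of mouse 5 held the most. Ccr3, the eotaxin receptor, had no read in any cTreg library and was at 5.999, 1.36, 16.4, 0.548 and 7.81 CPM in eTregs, at least 26.3-fold higher, with an adjusted p of 0.0041 that became 0.089 without mouse 3, and it was not called with voom. Ccr1, Ccr6, Ccr8, Ccrl2, Gpr15 and Ltb4r1 were among the other receptors that rose, of which Ccr1 lost its call without mouse 1, 2, 3 or 4 (adjusted p of 0.076 to 0.32). Among 10 genes of lymphoid homing and egress, 1 fell and none rose (10% lower, beside 0.714% of all tested genes), with a median of -0.10. That gene was Itga6, the integrin α6 subunit, at 159 to 242 CPM in eTregs and 308 to 489 CPM in cTregs (adjusted p = 0.034, and 0.075 to 0.15 without mouse 2, 3, 4 or 5). Ccr7, the receptor of lymph node entry, was at 1307, 1364, 1015, 1271 and 1007 CPM in eTregs and 1132, 1516, 1346, 1618 and 1165 CPM in cTregs, and its difference of -0.18 (SE 0.41, adjusted p = 0.92) was smaller than the spread between libraries.

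Integrin subunits rose in 6 of 14 cases and fell in 1, Itga6. These shares were 42.9% and 7.14%, beside 4.85% and 0.714% of all tested genes. Itgae (CD103, which binds E-cadherin on epithelium) was at 111, 290.0, 186, 112 and 273 CPM in eTregs and 0.374, 20.5, 19.2, 5.69 and 38.8 CPM in cTregs, a difference of 3.51 (SE 0.63, adjusted p = 5.6e-05). Itgav, whose αv integrins activate TGF-β, was at 160.0 to 295 CPM in eTregs and 38.5 to 116 CPM in cTregs. Itga1, the collagen-binding α1 subunit, had no cTreg read and was at 0, 0, 15.9, 10.96 and 10.1 CPM in eTregs, so the call rested on mice 3, 4 and 5 and its adjusted p of 0.0081 became 0.070 without mouse 3 and was 0.13 with voom. Itga2 and Itgb5 were the remaining members that rose, each lost without mouse 1, 3, 4 or 5 (adjusted p of 0.067 to 0.33), and the leukocyte subunits Itgal, Itgb2 and Itga4 were not called.

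**Figure D3:**
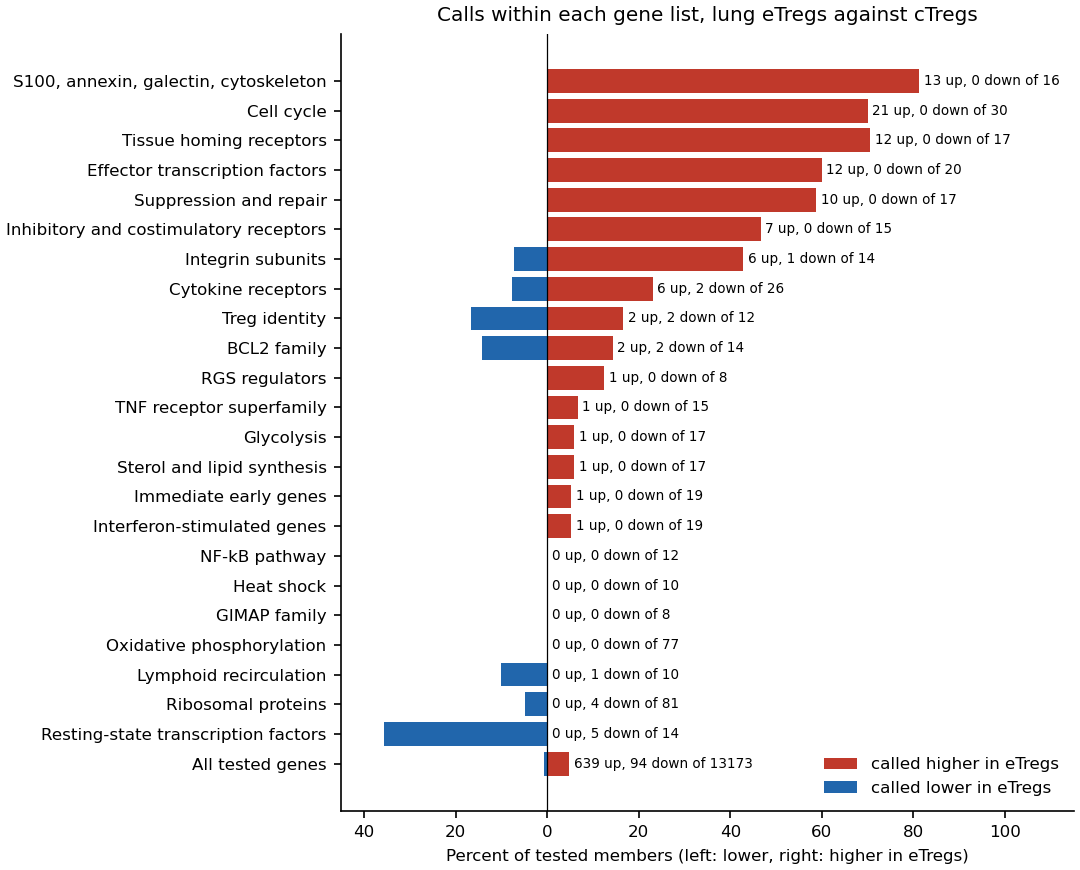
Share of the tested members of each gene list that was higher (red, right) or lower (blue, left) in lung eTregs, with the counts beside each bar and all 13173 tested genes in the bottom row. The 6 lists at the top each have at least 46.7% of their members higher and none lower, against 4.85% of all genes.

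Suppressive and repair molecules rose in 10 of 17 tested members (58.8%, beside 4.85% of all tested genes) and fell in none, with a median difference of 3.37. Tigit, an inhibitory receptor, was at 183, 319, 150.1, 303 and 216 CPM in eTregs and 10.1, 19.4, 20.2, 21.6 and 8.98 CPM in cTregs (difference 3.89, SE 0.35, adjusted p = 3.5e-13). Fgl2, a secreted suppressive fibrinogen-like protein, was at 111, 156, 86.4, 60.3 and 114.9 CPM and 7.85, 4.20, 0, 1.14 and 4.90 CPM, and Lgals1, encoding galectin-1, at 228 to 365 and 55.6 to 118 CPM. Il10 was at 18.7, 69.3, 19.3, 68.0 and 69.9 CPM in eTregs and at 0, 0.525, 0.961, 0.569 and 1.22 CPM in cTregs, where all 5 libraries together held 7 reads. Its difference was 6.11 (SE 0.62, adjusted p = 4.7e-11), and the eTreg libraries of mice 1 and 3 stood well below the other three. Ebi3, Gzmb, Gzma, Lag3, Havcr2 and Il1r2 also rose, but Gzma lost its call without any single mouse (adjusted p of 0.079 to 0.17) and Havcr2 without mouse 2 or 3 (0.057 to 0.29). Areg, the epidermal growth factor family ligand amphiregulin, was at 141, 220.0, 104, 227 and 133 CPM in eTregs and 113, 134, 65.4, 164 and 58.8 CPM in cTregs, with a difference of 0.63 (SE 0.31, adjusted p = 0.28). The groups overlapped, and every lung cTreg library held the transcript. Within each of the 5 mice the eTreg library was the higher, and with only the groups compared and each mouse as a block Areg was called (difference 0.66, SE 0.15, adjusted p = 0.015), while its adjusted p was 0.058 to 0.96 under the other alternatives.

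Of 15 inhibitory and costimulatory receptors 7 rose (46.7%, beside 4.85% of all tested genes) and none fell, while the list's median was 0.10. Icos, a costimulatory receptor of activated T cells, was at 692 to 940.2 CPM in eTregs and 284 to 523 CPM in cTregs (difference 1.02, SE 0.16, adjusted p = 2.5e-06). Klrg1, a marker of terminal effector cells, was at 54.7, 16.3, 26.8, 8.22 and 68.0 CPM in eTregs and 0.374, 1.57, 0, 2.28 and 0.408 CPM in cTregs, with an adjusted p of 2.5e-05 that was 0.11 with voom and quality weights. Cd200r1 was at 65.2 to 86.1 and 16.5 to 52.4 CPM. Pdcd1, which encodes PD-1, Tigit, Lag3 and Havcr2 were the others that rose, and Pdcd1 lost its call without any single mouse (adjusted p of 0.055 to 0.12). Cd28, Cd27, Cd5, Cd69, Cd96, Btla, Cd200 and Cd160 were not called. In the TNF receptor superfamily 1 of 15 members rose (6.67%, beside 4.85% of all tested genes). That gene was Tnfrsf1b (TNFR2), at 487, 596, 567, 371 and 600.3 CPM in eTregs and 185, 347, 272, 145 and 478 CPM in cTregs. Its adjusted p of 0.024 became 0.052 to 0.16 without mouse 1, 2, 3 or 4.

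Cytokine receptor chains rose in 6 of 26 and fell in 2 (23.1% and 7.69%, beside 4.85% and 0.714% of all tested genes). The chains of the IL-18 receptor rose together: Il18r1 was at 315, 339.5, 309, 397 and 337 CPM in eTregs and 44.5, 54.6, 53.4, 71.7 and 21.6 CPM in cTregs, and Il18rap at 92.7, 95.8, 156, 65.2 and 118 CPM and 0, 0, 7.69, 2.28 and 0.408 CPM, with differences of 2.80 (SE 0.36) and 5.71 (SE 0.59). Il9r had no read in any cTreg library and was at 90.0, 42.8, 27.3, 22.5 and 43.7 CPM in eTregs, at least 154-fold higher. The decoy receptor of IL-1, Il1r2, was at 12.7, 208, 20.6, 30.1 and 14.7 CPM in eTregs, where mouse 2 held most of it, and at 0.748, 0, 0, 5.12 and 0.408 CPM in cTregs. Il10ra and Il23r were the other chains that rose, the latter lost without any single mouse (adjusted p of 0.076 to 0.18), and Il2ra and Ifngr2 fell. Of the IL-2 receptor, the β and γ chains Il2rb and Il2rg had differences of 0.22 (SE 0.16) and 0.055 (SE 0.10) and were not called.

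S100 proteins, annexins, galectins and cytoskeletal genes held the highest share of DEGs among the lists, with a median difference of 1.88. In this list 13 of 16 members rose (81.25%, beside 4.85% of all tested genes). Besides S100a6, Anxa2 and Lgals3, the calcium-binding gene S100a11 was at 86.0, 99.8, 67.1, 87.2 and 59.8 CPM in eTregs and 15.3, 11.02, 18.8, 24.5 and 16.3 CPM in cTregs. The intermediate filament gene Vim was at 711, 744, 566, 659 and 555 CPM and 300.5, 308, 318, 367 and 383 CPM, a difference of 0.95 (SE 0.13, adjusted p = 8.2e-08). Anxa6 was close to the fold limit at 0.62 (SE 0.089), and with voom and quality weights its difference of 0.58 fell below it. S100a4, S100a10, Anxa1, Anxa4, Anxa5, Lgals1 and Ahnak also rose.

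Cell cycle genes rose in 21 of 30 cases (70%, beside 4.85% of all tested genes) and fell in none, with a median difference of 4.05. Their summed level was 1674 to 3824 CPM in eTregs and 789 to 1083 CPM in cTregs, so the groups did not overlap. Mki67, which encodes the proliferation marker Ki-67, was at 98.0, 243, 137, 78.4 and 240.4 CPM in eTregs and 0, 3.15, 0.481, 0 and 0 CPM in cTregs, where 3 libraries had none (difference 7.79, SE 0.94, adjusted p = 4.5e-09). Top2a, the DNA topoisomerase of dividing cells, was at 63.3, 219, 106, 86.6 and 348 CPM and 7.85, 7.87, 0, 6.26 and 2.86 CPM, and Tyms, thymidylate synthase, at 56.6 to 80.8 and 7.97 to 19.4 CPM. Kif11, a motor of the mitotic spindle, was at 0, 115.4, 43.2, 24.7 and 134 CPM in eTregs and had 1 read in all cTreg libraries together, and the eTreg library of mouse 1, without reads, overlapped the cTregs. Without 1 mouse the list's count was 15 to 19, and Ccnb1 lost its call without any single mouse (adjusted p of 0.068 to 0.17). Mice 2 and 5 held the most Mki67, Top2a and Kif11 in eTregs. Members of the replication licensing complex were mixed, since Mcm3 and Mcm6 rose while Mcm2, Mcm4, Mcm5 and Mcm7 were not called, and Mcm3 lost its call without mouse 1 or 3 (adjusted p of 0.073 to 0.10). As the samples were bulk, more dividing cells and more transcript per cell cannot be told apart, which holds for every gene here.

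**Figure D4:**
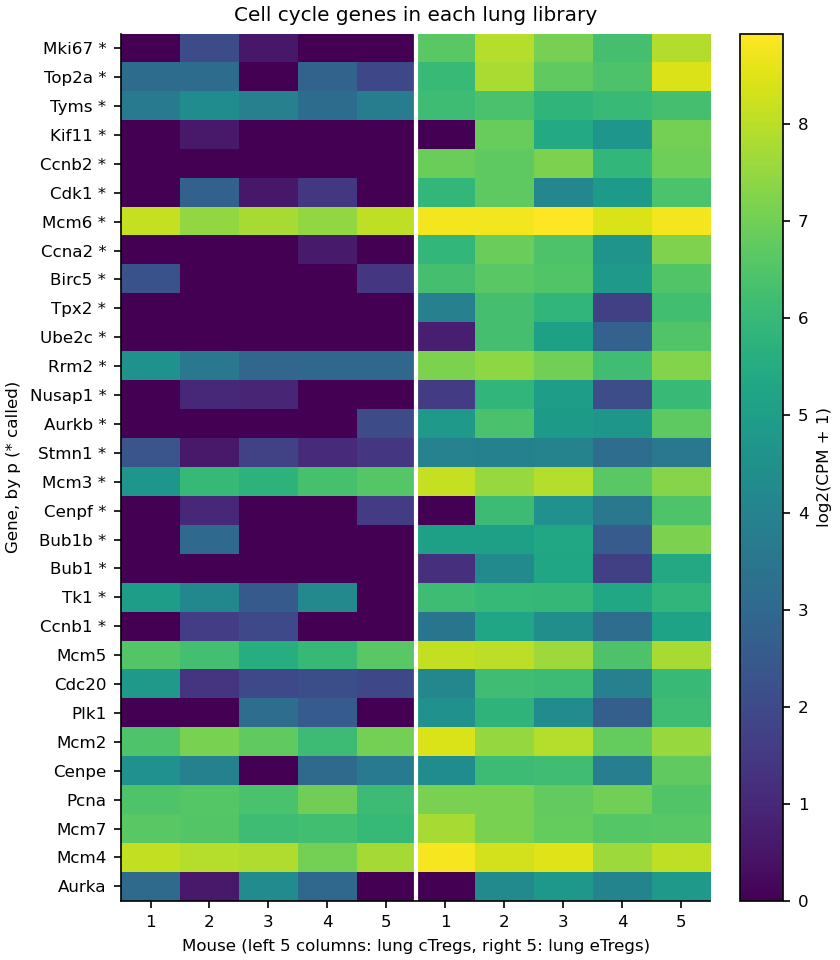
log2(CPM + 1) of the 30 cell cycle genes (rows, ordered by p, called genes with an asterisk) in the lung cTreg libraries (left 5 columns) and eTreg libraries (right 5) of mice 1 to 5. Most called genes are near 0 in cTregs, and the eTreg columns of mice 2 and 5 hold the highest levels of Mki67, Top2a and Kif11.

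Several signalling and metabolic lists held 1 called gene or none. With 1 gene each, the share that rose was 5.26% of immediate early, 5.88% of glycolysis, 5.88% of sterol, 5.26% of interferon-stimulated and 12.5% of RGS genes, beside 4.85% of all tested genes. Of 19 immediate early genes only Nfatc1 rose, at 234 to 379 CPM in eTregs and 148 to 249 CPM in cTregs, and its adjusted p of 0.013 became 0.14 without mouse 2. No NF-κB gene was called among 12 (Tnfaip3 was at 2131 ± 247 and 2091 ± 295 CPM, and Nfkbia at 664 ± 75.0 and 646 ± 89.2), and none of 10 heat shock genes (Hsp90ab1 at 782 ± 126 and 812 ± 137). The same held for 8 GIMAP GTPases (Gimap3 at 1141 ± 173 and 1145 ± 118 CPM) and for 77 subunits of oxidative phosphorylation, whose median difference was 0.066. At an unadjusted p under 0.05 edgeR gave 1 NF-κB gene, 1 heat shock gene, 1 GIMAP gene and 4 of the 77 subunits. DESeq2 and voom called 0 in each of these lists. Of all 13173 tested genes, 2403 were under the same limit. So were 2 of 19 immediate early, 6 of 17 glycolysis and 7 of 17 sterol genes. It was also met by 3 of 19 interferon-stimulated, 4 of 8 RGS and 23 of 81 ribosomal protein genes. In glycolysis 1 of 17 genes rose, Tpi1 (triosephosphate isomerase), from 69.0 ± 19.7 to 134 ± 17.8 CPM. In sterol synthesis Hmgcs1 alone of 17 rose, with an adjusted p of 0.032 that became 0.067 to 0.22 without mouse 1, 3, 4 or 5, and among 19 interferon-stimulated genes Oas1a alone, with an adjusted p of 0.0048 that became 0.051 without mouse 5. Among 8 RGS regulators Rgs18 was called on reads in mice 1 and 3 alone, and its adjusted p was 0.06 with each mouse as a block, so that the call was lost. It was also lost without mouse 1, 3, 4 or 5 (adjusted p of 0.11 to 0.22). Ribosomal proteins had a median difference of -0.30, and 4 of 81 fell (4.94%, beside 0.714% of all tested genes). These were Rpl10a, Rpl12, Rpl10 and Rps27a, each lost without at least 2 of the mice in turn (adjusted p of 0.054 to 0.22). Ribosomal protein genes have many near-identical pseudogenes with which reads may be shared, and their counts were 0.444% to 0.628% of all counts in eTregs and 0.561% to 0.833% in cTregs.

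Survival genes of the BCL2 family changed in both directions, with 2 of 14 higher and 2 lower. Each share was 14.3%, beside 4.85% higher and 0.714% lower of all tested genes. Bcl2, which protects against apoptosis, was at 334, 295, 343, 382 and 349 CPM in eTregs and 486, 781, 595, 808 and 660.1 CPM in cTregs (difference -0.97, SE 0.28, adjusted p = 0.020, and 0.069 to 0.13 without mouse 2, 3 or 5). Bcl2l11, which encodes the pro-apoptotic protein BIM, was at 128, 65.9, 104, 83.3 and 71.7 CPM and 236, 359, 351, 323 and 268 CPM (difference -1.76, SE 0.46, adjusted p = 0.0095, and 0.064 and 0.073 without mouse 3 and 5). For both genes every eTreg library lay below every cTreg library. Bcl2a1b and Bcl2a1d rose, but these are near-identical copies of one gene and their reads may be shared. Bcl2a1b lost its call without mouse 2 or 3 (adjusted p of 0.15 and 0.12), and neither was called with the lung libraries alone.

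Some transcripts that rose had no read at all in cTregs. Of the 639 DEGs that rose, 135 had no read in any of the 5 cTreg libraries, and 56 of these had reads in all 5 eTreg libraries. The filter drew on libraries of all groups, so a gene could be tested without reads in a lung group. How many of all tested genes lacked reads in cTregs or in eTregs is not given, so no excess among the DEGs is claimed. Against a floor of 3 counts over the cTreg group, the 135 were at least 3.49-fold to at least 407-fold higher (median of the bounds 25.9). A count of 0 limits the level over 5 libraries of 220 cells each and does not show that the gene was silent. Those with the highest eTreg means, picked here after the values were seen, were Ccnb2 (a mitotic cyclin) at 59.2 to 143 CPM, Adam8 (a membrane metalloprotease) at 38.1 to 151 CPM, Tox2 (an HMG-box factor) at 49.1 to 83.5 CPM, Mmp9 (a secreted gelatinase) at 8.15 to 147 CPM and Dusp14 (a phosphatase) at 34.7 to 55.7 CPM. The bounds were at least 407-fold, 262-fold, 247-fold, 207-fold and 173-fold. In the other direction 7 of the 94 DEGs that fell had no eTreg read. Ntn4, encoding a secreted netrin, had the most cTreg reads of these, at 5.69 to 40.9 CPM, at least 64.3-fold lower in eTregs.

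Spleen eTregs and cTregs of the same mice, sorted with the same gates, gave 571 DEGs that rose (4.33%) and 84 that fell (0.638%). Per the study's methods, spleens were disrupted mechanically, whereas lungs were digested with collagenase. Organ and tissue processing therefore cannot be told apart where lungs and spleen are compared below. Of the lung DEGs that rose, 350 also rose in spleen, which is 54.8% of the lung list and 61.3% of the spleen list. Of those that fell, 21 also fell in spleen, 22.3% of the lung list and 25.0% of the spleen list. A gene called in one organ and not in the other is not thereby shown to differ, so the difference of the differences was tested in the same fit. It was called for 18 genes, 12 (0.0911%) with a more positive eTreg minus cTreg difference in lungs and 6 (0.0455%) with a less positive one. The count was 2 to 4 without mouse 1, 2, 3 or 4, 45 when only these 4 groups were fitted and 110 with voom and quality weights, so the list is not settled by these libraries.

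Genes with the more positive difference in lungs included a pair of neighbouring membrane genes and several cytoskeletal genes. Tmem176a, a member of the MS4A-like membrane protein family, was at 79.99, 72.0, 36.1, 48.8 and 65.3 CPM in lung eTregs and 0, 1.05, 0, 3.42 and 4.90 CPM in lung cTregs, while in spleen it was at 6.85 ± 4.12 CPM in eTregs and 8.14 ± 5.79 CPM in cTregs. The lung difference exceeded the spleen difference by 5.26 (SE 0.99, adjusted p = 0.0065), and for Tmem176b by 4.48 (SE 1.03, adjusted p = 0.045). Glrx rose in both organs, by 2.996 in lungs and 1.56 in spleen, and the excess was 1.43 (SE 0.27, adjusted p = 0.0065). Vim was at 355 ± 26.2 CPM in spleen eTregs and 346 ± 28.6 CPM in spleen cTregs, where it did not differ beyond the spread, and the excess in lungs was 0.91 (SE 0.18). Sept11 (a septin), Cpm (a membrane carboxypeptidase) and Anxa6 had excesses of 1.53, 1.06 and 0.63. For Itgb3, the integrin β3 subunit, the excess of 1.80 (SE 0.42) lay between a difference of -1.97 (SE 0.31) in spleen, where it fell, and -0.17 (SE 0.29) in lungs. Sit1, Mtpn, Itgb7 and Fli1 completed the 12, with excesses of 1.01, 0.77, 0.59 and 0.88. Of 17 alternatives, Tmem176a was called under 14 but Tmem176b under only 5. Sept11 was called under 13, Glrx and Vim under 12, and Cpm and Sit1 under 11. Anxa6 and Itgb3 were called under 8, Mtpn and Fli1 under 7, and Itgb7 under 3.

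**Figure D5:**
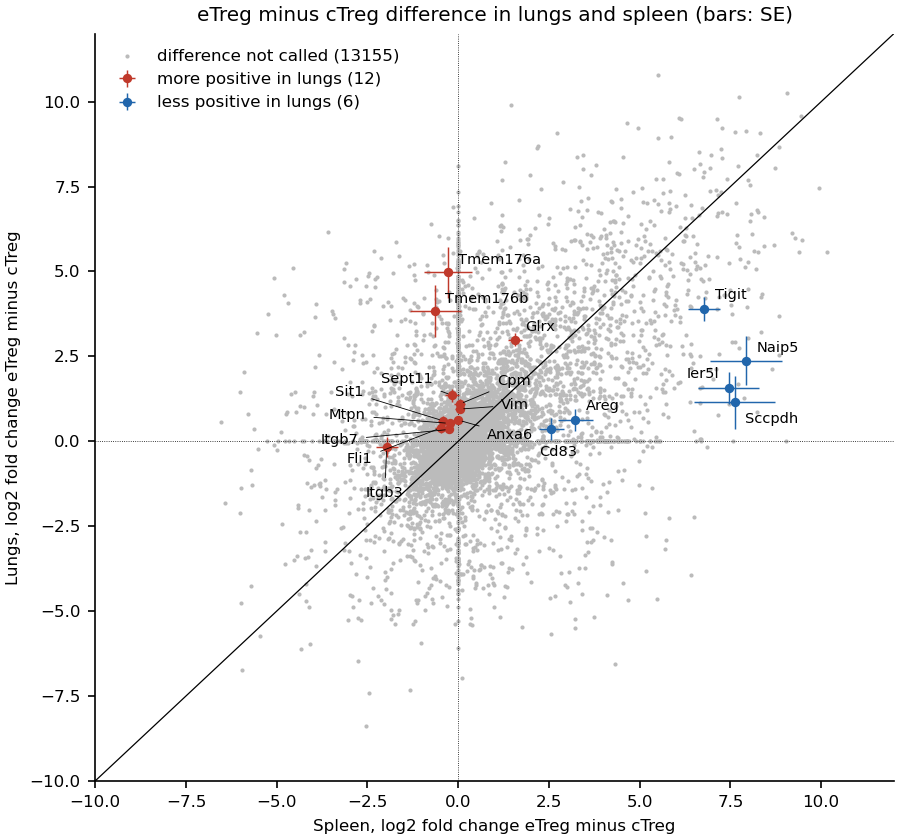
log2 fold change eTregs minus cTregs in spleen (x axis) and lungs (y axis) for each tested gene, with the line of equal differences. Red points are the 12 genes whose difference was more positive in lungs, blue points the 6 less positive, and bars are 1 SE. Tmem176a and Tmem176b stand above the line near 0 on the spleen axis, and Tigit, Naip5, Ier5l and Sccpdh lie far to the right below it.

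The 6 genes with the less positive difference in lungs had higher mean levels in lung cTregs than in spleen cTregs, a contrast that was not tested. Tigit was at 16.1 ± 6.02 CPM in lung cTregs and 1.78 ± 2.11 CPM in spleen cTregs, against 234 ± 74.0 and 206 ± 27.8 CPM in the eTregs of lungs and spleen, so it rose in both organs. Its lung minus spleen value was -2.89 (SE 0.58, adjusted p = 0.010). Areg was at 107 ± 44.9 CPM in lung cTregs and 2.02 ± 1.52 CPM in spleen cTregs, and at 165 ± 55.1 and 19.8 ± 8.46 CPM in eTregs. Its lung minus spleen value was -2.60 (SE 0.59, adjusted p = 0.040). Cd83, a membrane protein of activated lymphocytes, was at 193 ± 74.8 CPM in lung cTregs and 67.6 ± 29.9 CPM in spleen cTregs and had a value of -2.21 (SE 0.47). Ier5l, Sccpdh and Naip5 were near 0 in spleen cTregs, at 0.0803 ± 0.179, 0.293 ± 0.656 and 0.157 ± 0.351 CPM, and at 16.3 ± 14.3, 10.6 ± 13.8 and 3.39 ± 4.17 CPM in lung cTregs. Values of -5.89, -6.47 and -5.56 for these 3 genes were thus fitted against spleen cTreg levels near 0 and are no bounds.

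Markers of other cells stood beside these results as follows. In eTregs and cTregs, the summed level of 7 B cell markers was 20.4 to 53.3 and 0.816 to 35.3 CPM, mostly Cd79b where it was high, and Ms4a1 and Pax5 had no read. Cd79b, a signalling chain of the B cell receptor, was at 50.7, 17.7, 33.1, 24.7 and 41.4 CPM in eTregs and 25.4, 14.7, 0, 28.5 and 0 CPM in cTregs (difference 1.29, SE 0.52, adjusted p = 0.15). It was called higher with voom (adjusted p = 0.0076) and with voom and a block (0.0072), and its adjusted p was 0.070 to 0.50 under the other alternatives. Cd79a, the partner chain, was at 2.94 ± 1.18 CPM in eTregs and 3.64 ± 2.73 CPM in cTregs (difference -0.29, SE 1.08, adjusted p = 0.98). Ebf1 had reads in cTregs but not in eTregs, and Cd22 in eTregs but not in cTregs. Of the immunoglobulin joining segments, chosen after their values were seen, Ighj1 was at 3.33 to 10.1 CPM in eTregs and 0 to 0.481 in cTregs (adjusted p = 0.0076 over all gene types). Igkj1 was at 0 to 4.93 CPM in eTregs, without reads in cTregs (adjusted p = 0.046). For 12 myeloid markers the summed level was 10.9 to 40.7 and 0 to 116 CPM, with C1qa, C1qc, Csf1r, Csf3r, Chil3 and Marco without reads. Fcer1g, a myeloid marker, was called higher in eTregs at 5.999, 0, 6.71, 3.84 and 1.38 CPM against 0 in all cTreg libraries, and the call was lost without any single mouse (adjusted p of 0.078 to 0.20). The platelet chemokine genes Pf4 and Ppbp, chosen after their values were seen, were also called higher, with reads in the eTreg libraries of mice 1 and 3 alone, as for Rgs18, and in no cTreg library. Pf4 was at 21.3, 0, 10.1, 0 and 0 CPM in eTregs of mice 1 to 5 (adjusted p = 0.030, 0.016 to 0.29 under the alternatives) and lost its call without mouse 1, 2, 3 or 5 (0.056 to 0.20). Ppbp was at 23.3, 0, 26.8, 0 and 0 CPM (adjusted p = 0.021, 0.019 to 0.22 under the alternatives) and lost its call without mouse 2, 3, 4 or 5 (0.053 to 0.16). Neither was called with voom (0.29 and 0.18). For 10 markers of lung epithelium the sum was 50.7 to 127 and 61.4 to 236 CPM, and the surfactant gene Sftpc was at 12 to 41.4 and 5.77 to 126 CPM in lung libraries and without reads in the spleen libraries of both populations. For 6 markers of CD8 T and NK cells it was 25.7 to 59.99 and 34.1 to 77.0 CPM, mostly Cd8b1, with no read of Cd8a or Ncr1. Sums for 8 endothelial, 6 fibroblast and 5 erythroid markers were 0 to 4 and 0, 0 to 6.67 and 0 to 9.11, and 0.460 to 12.2 and 0.374 to 33.6 CPM. Of 6 cytokine genes of conventional CD4 T cells, 5 were tested and 1 rose (20%, beside 4.85% of all tested genes). That gene was Cd40lg, from 56.0 ± 21.9 to 122 ± 19.4 CPM (difference 1.117, SE 0.27, adjusted p = 0.0034). DESeq2 called 2 of the 5 higher and voom 3, beside 748 and 881 of all 13173 tested genes. The sum of all 6 was 107 to 161 CPM in eTregs and 24.7 to 82.0 CPM in cTregs. Itgam was at 0 to 2.19 CPM in eTregs and without reads in cTregs. The part of other cells in the DEGs was not tested.

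Within the 5 mice, eTreg libraries held more detected genes than cTreg libraries in every pair and a lower percent of ribosomal protein counts in every pair. A two-sided exact permutation test of the pairs gave p = 0.0625 for each, the smallest value that 5 pairs allow. Protein-coding genes with a count numbered 10461 to 11312 in eTregs and 10202 to 10877 in cTregs, a mean difference of 563.8 (unpaired two-sided exact permutation test, p = 0.032, adjusted p = 0.19 over 6 measures). The adjusted p of the unpaired test was 0.24 to 0.98 for total counts, percent mitochondrial, percent ribosomal protein, percent in the 50 highest genes and the TMM factor. With 5 against 5 libraries the smallest p the unpaired test allows is 0.0079. The part of these measures in the DEGs was not tested.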

How the data were processed

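RNA was measured in 220 sorted cells per lung library. Per the study's methods and the submitters' processing notes, the authors demultiplexed reads with CASAVA 1.8.2, aligned them with STAR to GRCm38 (Ensembl 91) and counted them per gene with HTSeq 0.4.1, and they deposited raw counts of 53465 gene identifiers. The counting mode and use of strand were not given in the sources used here, so overlapping and antisense genes may share reads. Symbols, gene types and gene coordinates came from GENCODE M21 (GRCm38), which held 53274 of the identifiers, 21865 of them protein-coding.

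Groups came from the labels. Of 70 libraries, the 67 with at least 1000000 counts were kept, among them all 10 lung libraries compared here. Genes annotated as protein-coding that reached 1 CPM in 10% of the 67 libraries were fitted with edgeR 4.0.16 (R 4.3.3): TMM factors, 14 group terms, no mouse term and the quasi-likelihood F-test, with Benjamini-Hochberg adjustment over 13173 genes for each contrast. The SE is the log2 fold change divided by the square root of F. The steps were tested on simulated data. Counting intervals and floors cover counting error only, since the reads carry no molecular identifiers. Libraries with the same number came from the same animal, so they are pairs. Their deviations from the group means correlated at 0.0446 to 0.305 over 8809 genes, against means of -0.0775 to -0.0109 with other mice.

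The gene lists, the rule for named genes and the comparison itself were chosen with earlier results of these data known. Named were the 10 genes with the smallest p in each direction, all sort and Treg identity genes, up to 4 called members of each other list (or up to 2 uncalled ones where none was called), the lung minus spleen genes and the genes of stained proteins. A few genes of the rule and the lists are not reported here. Other members are named to complete a list's count, and values of genes outside the rule were chosen after they were seen. Alternatives were a mouse block, DESeq2 1.42.0, voom with quality weights (limma 3.58.1), other factors, filters, gene types and library sets, glmTreat, and leaving out each mouse. Promoters came from RefSeq (GRCm38.p6).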

Additional observations from a re-analysis of the deposited data

Results flagged for a closer look

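Of 70 sets of 5 libraries checked for a library apart from the other 4, by Dixon's ratio of the gap to the range (limit 0.71), 9 had one. The limit is set for a rate of 1 in 20, or 3.5 sets, which assumes normally distributed values. Where only 1 library held reads, as for Lgals3 in cTregs and endothelial markers in eTregs, the ratio is 1 whatever the level. The count of 9 therefore cannot be compared with 3.5, and an excess over chance was not shown. Protein-coding genes with a count were fewest in the eTreg library of mouse 1, at 10461 (ratio 0.81). The percent of ribosomal protein counts was highest in the cTreg library of mouse 4, at 0.833% (ratio 0.713). Of the genes named, Lgals3 in cTregs (ratio 1) had its single read in mouse 3, and Klf7 in cTregs (ratio 0.719) was lowest in mouse 5, at 131 CPM. Summed markers stood apart for myeloid cells in the cTregs of mouse 1 (115.9 CPM, ratio 0.891), endothelium in the eTregs of mouse 1 (4 CPM, ratio 1), fibroblasts in the cTregs of mouse 4 (9.11 CPM, ratio 0.959), erythroid cells in the cTregs of mouse 3 (33.6 CPM, ratio 0.889) and conventional CD4 T cell cytokines in the eTregs of mouse 5 (106.6 CPM, ratio 0.954), where the other four lay between 158.4 and 160.9 CPM.

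The eTreg minus cTreg difference differed between lungs and spleen for 18 genes in the test of the difference of differences. On the log2 scale, lungs minus spleen, it was 1.53 for Sept11, 5.26 for Tmem176a, 4.48 for Tmem176b, 1.43 for Glrx, 0.91 for Vim, 1.06 for Cpm, 0.63 for Anxa6, 1.01 for Sit1, 0.77 for Mtpn, 0.59 for Itgb7, 0.88 for Fli1 and 1.80 for Itgb3. It was -5.89 for Ier5l, -6.47 for Sccpdh, -5.56 for Naip5, -2.89 for Tigit, -2.60 for Areg and -2.21 for Cd83. Outside the protein-coding genes, 57 genes of other types were called between lung eTregs and cTregs.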

How the results depend on the processing

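None of the 119 named genes changed direction as a called gene under the alternatives run. The count of DEGs higher in eTregs, 639, was 384 with glmTreat, which tests against 1.5-fold, and 429 to 522 without 1 mouse. The count of lower DEGs, 94, was 158 with DESeq2, 349 with voom and quality weights, 275 with voom and a mouse block, 52 with all 70 libraries, 206 with only the groups compared, 262 with only these and a block, 14 with glmTreat and 43 to 69 without 1 mouse. The 18 genes with a lung minus spleen difference became 78 with DESeq2, 110 with voom, 81 with voom and a block, 6 with all 70 libraries, 45 with only the groups compared, 77 with only these and a block, 2 with glmTreat and 2 to 12 without 1 mouse. The cause was not tested. The share of DEGs that was higher, 87.2%, was 71.6% with voom, 74.4% with voom and a block, 72.8% with only the groups compared and 69.9% with a block added. With mouse as a replicate block in the same fit the counts were 642 higher, 113 lower and 26 lung minus spleen, and this block changed no named call but Rgs18. Other factors and filters gave 583 to 629 higher and 78 to 97 lower DEGs. With all gene types fitted there were 630 higher and 98 lower, of which 49 and 8 were not protein-coding. Of 80 named genes called, 29 were lost with glmTreat, 10 to 15 without 1 mouse, 12 with all 70 libraries (among them Nrp1, Itga6, Tnfrsf1b, Nfatc1, Hmgcs1 and Bcl2), 7 with only the groups compared (among them Hmgcs1, Bcl2a1d and Bcl2a1b) and 6 with voom (Itga1, Klrg1, Rgs18, Fcer1g, Anxa6 and Ccr3). Voom added calls for Cd79b and Thy1, voom with a block for Cd79b, only the groups compared with a block for Areg, and leaving out mouse 4 for Thy1. At 1559367 to 2670517 counts from 220 cells, a transcript without reads in 5 libraries was not shown to be absent.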

Other observations

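Genes of other types than protein-coding were fitted together with the protein-coding genes. Of 4400 tested, 49 rose and 8 fell in lung eTregs, 1.295% in all. The examples here were chosen after the values were seen. The long non-coding RNA AU020206 was at 325.4 ± 45.4 CPM in eTregs and 147.9 ± 37.6 CPM in cTregs, a log2 difference of 1.123 (SE 0.16). The long non-coding RNAs Gm16702 and C030034L19Rik had no read in any cTreg library and were at 16.9 ± 9.26 and 27.8 ± 7.22 CPM in eTregs. The processed pseudogene Gm6637 was at 44.5 ± 4.19 CPM in eTregs and without reads in cTregs, and reads may be shared with a protein-coding copy. The transcribed pseudogene Gm4956 was lower in eTregs, at 86.8 ± 15.7 against 209.9 ± 19.0 CPM.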
